A study of Mus musculus with 6 samples.

Results

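The genes described here are 10 receptor genes of the NK gene complex, a cluster on mouse chromosome 6 that encodes C-type lectin-like receptors of natural killer (NK) cells, platelets and myeloid cells: Klrb1c, Klrb1b, Clec1b, Klrd1, Klrk1, Klrc2, Klri2, Klra17, Klra8 and Klra2, in their order along the chromosome. They are 10 of the 56748 genes in each table and were chosen because several of them were nearly absent from some libraries, which is the measure described below. Their levels in these libraries are therefore given as a description and carry no test. Poly(A) RNA of pregnant mouse uterus (day 4, 1600 h; the series text says endometrium) was sequenced in 3 libraries labelled Zip10 cKO, a conditional knockout, and in 3 labelled control, whose genotype is given as WT. Zip10, encoded by Slc39a10, is a zinc importer, and the series describes its deletion as uterine-specific. All groups share tissue, day and hour. The labels name neither the Cre driver nor the mouse strain, and do not say whether each library is 1 animal, so the spread between libraries may be partly technical.

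Receptors of this complex sit on the cell surface, and many of them read self molecules. Inhibitory ones carry a signalling motif that restrains the cell, and many activating ones couple to adaptors such as DAP12 (Tyrobp) or DAP10 (Hcst). The Klra genes encode the Ly49 receptors, most of which bind class I major histocompatibility molecules, the Klrb1 genes encode the NKR-P1 receptors, several of which bind Clr lectins, and Klrd1 encodes CD94, which pairs with NKG2 proteins from the Klrc genes to bind Qa-1. NK cells are abundant in the pregnant mouse uterus. The gene content of the complex is known to vary between inbred mouse strains, and Klra8, which encodes the activating receptor Ly49H, is a textbook case of a gene that some strains carry and others lack.

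Reads can be told apart between these genes only where their sequences differ, so the stretches below show how far 3 members with fractional counts, Klra8, Klrb1b and Klrc2, and Klri2, whose counts were all whole, differ from their nearest relatives. Each is a 60-base coding stretch in the sense orientation, from GENCODE M21 (GRCm38) transcripts of genes on the minus strand of chromosome 6, chosen as the one with the most differences from the nearest relative. For the first gene of each set, capitals mark bases that differ from its nearest relative, which is listed next. For the other genes, capitals mark bases that differ from the first.
Klra8: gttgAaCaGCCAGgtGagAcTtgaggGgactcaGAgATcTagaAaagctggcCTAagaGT
Klra9: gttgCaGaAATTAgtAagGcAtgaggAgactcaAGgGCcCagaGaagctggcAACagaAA
Klra10: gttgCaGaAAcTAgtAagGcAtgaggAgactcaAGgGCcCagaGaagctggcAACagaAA
Klra3: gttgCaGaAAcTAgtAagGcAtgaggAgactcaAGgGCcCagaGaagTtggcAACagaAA
Klri2: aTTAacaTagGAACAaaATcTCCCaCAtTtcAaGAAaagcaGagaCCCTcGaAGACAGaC
Klri1: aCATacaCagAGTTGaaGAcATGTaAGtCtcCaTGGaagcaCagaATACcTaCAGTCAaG
Klrb1b: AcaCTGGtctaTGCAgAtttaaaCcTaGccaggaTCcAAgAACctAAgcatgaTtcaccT
Klrb1c: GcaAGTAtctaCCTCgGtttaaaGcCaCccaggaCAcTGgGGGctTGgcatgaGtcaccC
Klrc2: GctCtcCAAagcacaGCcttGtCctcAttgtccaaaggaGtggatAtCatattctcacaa
Klrc3: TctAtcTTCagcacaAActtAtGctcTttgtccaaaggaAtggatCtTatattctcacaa

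The Klra8 stretch begins at coding base 54 and differs from Klra9 at 22 of 60 bases, from Klra10 at 21 and from Klra3 at 22. Over the whole coding sequence of 798 bases, Klra8 was 91.9% identical to Klra9, 91.1% to Klra10 and 90.5% to Klra3, and its longest exact run shared with Klra9 was 106 bases. Klri2 was 76.5% identical to Klri1, and Klrb1b 85.7% to Klrb1c. Klrc2 was the closest to a relative, at 94.3% identity to Klrc3 with an exact run of 203 bases. Klra17 and Klra2 stood farthest from the rest of their family. The nearest coding sequence was Klra1 for Klra17 at 80.8% and Klra7 for Klra2 at 70.4%.

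The summed gene counts ran from 19643093 to 22809577 per library. Slc39a10, the targeted gene, was at 39.5, 72.5 and 79.8 CPM (counts scaled to library size, with TMM factors) in cKO libraries 1, 2 and 3, and at 54.6, 70.4 and 66.2 CPM in controls 1, 2 and 3, so its total did not separate the groups. Which exons were deleted is not stated, and reads from exons outside the deletion enter the total. Markers of the main uterine tissues were present in every library. Over 5 genes each, endometrial stroma summed to 6620 to 8020 CPM in cKO libraries and 4790 to 5890 CPM in controls, smooth muscle to 9110 to 12500 CPM in cKO libraries and 5350 to 9600 CPM in controls, and epithelium to 542 to 841 CPM in cKO libraries and 734 to 1040 CPM in controls. Positive log2 fold changes were seen for 4 of 5 stroma genes, 5 of 5 smooth muscle genes and 0 of 5 epithelial genes. They were also seen for 5 of 5 red blood cell genes and 2 of 5 lymphatic endothelial genes. In that order the medians were 0.27, 0.55, -0.34, 0.32 and -0.09. The edgeR quasi-likelihood test called 0 of them, while 3, 1, 2, 0 and 0 had an unadjusted p under 0.05. The part of tissue makeup in the receptor levels was not tested. Of the 16737 genes with enough counts to be tested, edgeR's quasi-likelihood test called 0 at an adjusted p of 0.05 (0%), while 1081 had an unadjusted p under 0.05. On the same genes limma-voom called 0, with 1066 at that unadjusted p. DESeq2, with its own filter and 28970 genes tested, called 38, with 1201.

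Of the 10 receptor genes, 8 passed the filter on low counts. The remaining 2, Klri2 and Klra8, were near 0 in 4 of the 6 libraries and so had too few libraries with reads. Among the 8, all 3 cKO libraries lay above all 3 controls for Klrb1b, Klrb1c and Klrc2, as they did for 6.94% of all genes tested. For Clec1b all 3 lay below, as for 5.78% of all genes tested. Because these genes were chosen on these values, nothing is read from those counts. The values below are of bulk tissue, in which more cells of a type and more RNA per cell cannot be told apart.

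**Figure D1:**
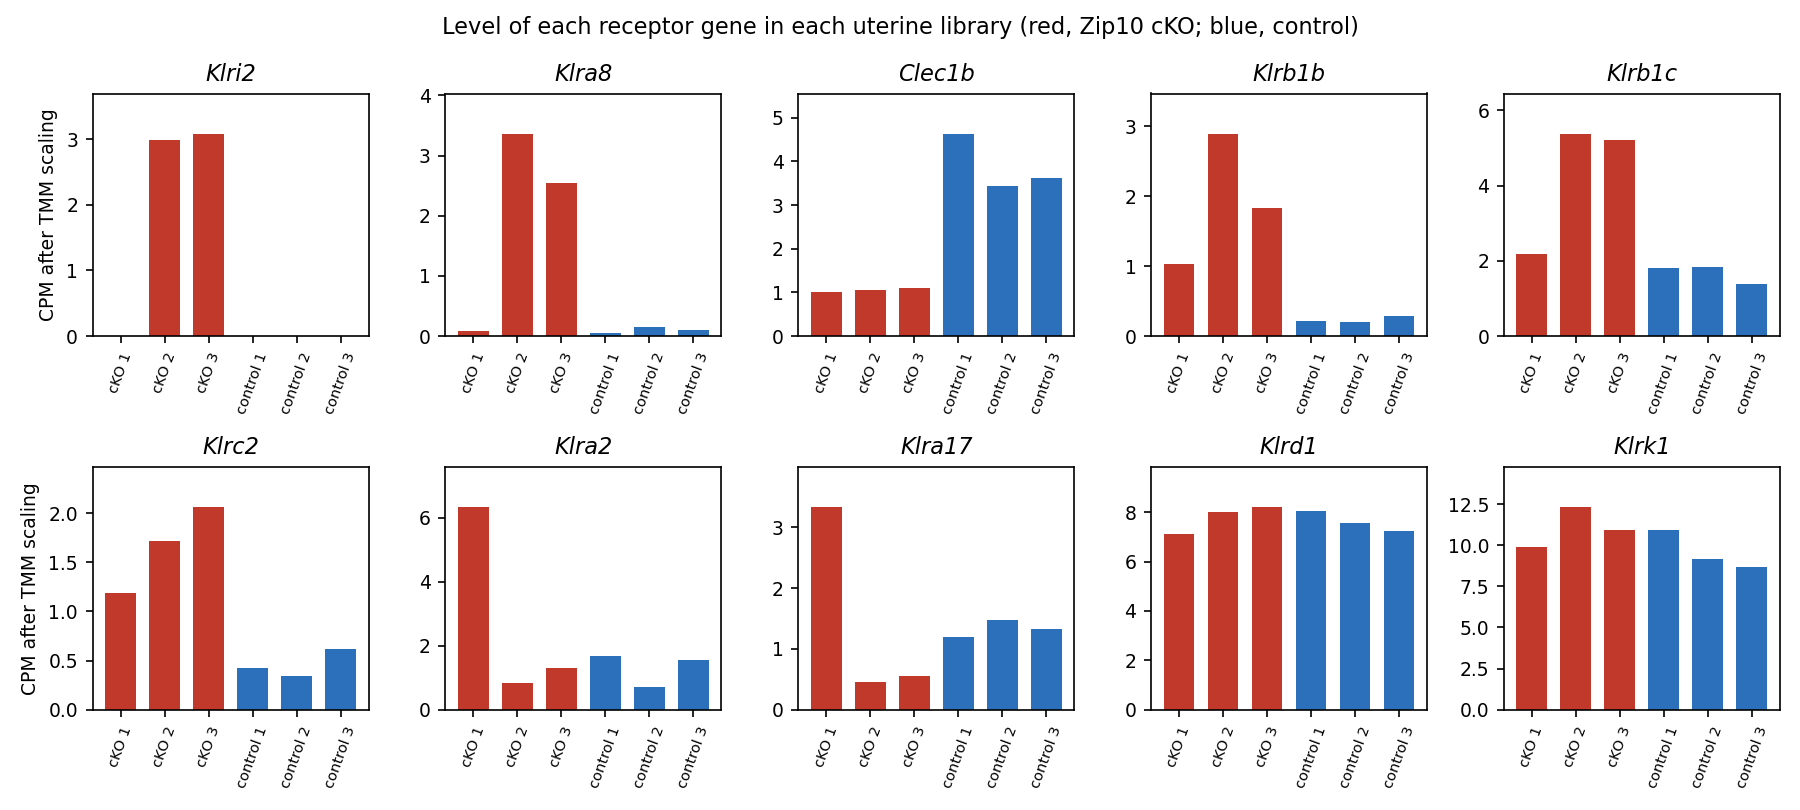
Level of the 10 receptor genes in each library, as CPM after TMM scaling (vertical axes start at 0 and differ between panels; bars are single libraries, red for Zip10 cKO and blue for control). Klri2 and Klra8 are seen in cKO libraries 2 and 3, Clec1b is lower in every cKO library than in every control, Klra2 and Klra17 are highest in cKO library 1, and Klrd1 and Klrk1 are similar in all 6.

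Klri2 (ENSMUSG00000043932), which encodes a receptor chain that pairs with the product of Klre1, had 0, 65 and 62 counts in cKO libraries 1, 2 and 3, and 0 counts in each of the 3 controls. The split ran through the cKO group: cKO library 1 was at 0 like the controls, and a count of 0 allows up to 3 counts, or at most 0.149 CPM. Every Klri2 count was a whole number, and no stretch of 100 bases in its transcript occurred in any other gene. Of its stretches of 50 bases, 2.77% occurred in 3 other genes. Klre1 itself did not share the split, at 5.23, 5.89 and 7.20 CPM in cKO libraries 1, 2 and 3 and 4.57, 6.13 and 5.48 CPM in controls 1, 2 and 3. Its log2 fold change of cKO over control was 0.18 ± 0.21 (SE; edgeR adjusted p = 0.855). Klri1, the inhibitory relative of Klri2, had at most 2 counts in any library.

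Klra8 (ENSMUSG00000089727), the gene of Ly49H, showed the same division. Its expected counts were 1.79, 73.0 and 51.3 in cKO libraries 1, 2 and 3, and 1, 3 and 2 in controls 1, 2 and 3. The 4 low libraries stood at or below 3 counts, and its counts were fractional in 3 of the 6 libraries. Klra8 took 0.446%, 13.7% and 11.2% of all Klra counts in cKO libraries 1, 2 and 3, and 0.327%, 1.12% and 0.707% in controls 1, 2 and 3. Of its stretches of 50 bases, 33.1% occurred in 5 other genes. At 100 bases the shared part was 14.4%, of which 13.7 percentage points were shared with the pseudogene Klra14-ps. Klra14-ps had 0, 7.05 and 4.00 counts in cKO libraries 1, 2 and 3 and 0 in each control.

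The same pattern was then looked for over all genes. Of 56748 genes, 2 had at most 3 counts in cKO library 1 and in each control and at least 15 counts in cKO libraries 2 and 3, and these were Klri2 and Klra8. The limits of 3 and 15 counts were set after the values of these 2 genes were seen. Nothing is therefore read from that count or from the ranking below. No gene had the reverse pattern. When all genes were ranked by the lower of cKO libraries 2 and 3 over the highest of the other 4, with 1 count added, Klri2 came first at 64.3, Klra8 came second at 13.3 and the immunoglobulin segment Igkv6-14 was the third at 5.27. Klra14-ps was the fourth at 5.21. All 4 lie on chromosome 6, although immunoglobulin segments belong to another cluster of it. The fifth, the predicted gene Gm20458 at 4.69, lies on chromosome 2. The mouse strain of each library is not given in the labels, and the part that a strain variant of the complex has in this split was not tested.

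Clec1b (ENSMUSG00000030159) encodes CLEC-2, a receptor best known on platelets and megakaryocytes that binds podoplanin. It had 21.3, 23.1 and 22.2 expected counts in cKO libraries 1, 2 and 3, and 105, 69.5 and 76.5 in controls 1, 2 and 3. The groups were far apart and the cKO libraries close together. In CPM the means were 1.06 ± 0.0452 in cKO libraries and 3.89 ± 0.647 in controls (SD, n = 3 each). The log2 fold change was -1.88 ± 0.26 (SE). The lowest control stood at 3.11 times the highest cKO library. cKO library 1 was on the same side as cKO libraries 2 and 3 here, unlike for Klri2 and Klra8.

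The Clec1b counts were split with a neighbour. They were fractional in all 6 libraries, and so were those of Clec9a, a dendritic cell receptor for dead cells that lies next to it on the same strand. The sum of both genes was a whole number in every library, to within 0.02: 124, 122 and 155 in cKO libraries 1, 2 and 3, and 188, 177 and 186 in controls 1, 2 and 3. In GENCODE M21 the exons of Clec1b and Clec9a overlap by 184 bases, through 1 of the 4 Clec1b transcripts. The pooled count of both genes kept the order of the groups, at 5.89, 5.61 and 7.70 CPM in cKO libraries 1, 2 and 3 against 8.26, 8.74 and 8.78 CPM in controls 1, 2 and 3, with a smaller distance. Clec9a alone overlapped between groups, at 4.88, 4.55 and 6.60 CPM in cKO libraries 1, 2 and 3 and 3.63, 5.31 and 5.17 CPM in controls 1, 2 and 3 (log2 fold change 0.18 ± 0.24, edgeR adjusted p = 0.870).

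Platelet genes gave mostly small positive values. Of 10 platelet and megakaryocyte markers, 4 passed the filter, 3 with positive and 1 with negative log2 fold changes, and edgeR's quasi-likelihood test called 0, with 1 at an unadjusted p under 0.05. Their median was 0.24. The summed level over the list was 12.1 to 14.7 CPM in cKO libraries and 10.4 to 12.2 CPM in controls. Pf4, platelet factor 4, averaged 5.69 CPM in cKO libraries and 3.77 CPM in controls, a log2 fold change of 0.59 ± 0.21 (edgeR adjusted p = 0.747), in the direction opposite to Clec1b. Itga2b, the platelet integrin subunit, stood at 0.15 ± 0.25 (edgeR adjusted p = 0.902), and the von Willebrand receptor genes Gp1ba and Gp1bb at 0.33 ± 0.39 and -0.72 ± 0.80 (edgeR adjusted p = 0.855 and 0.851). Gp1bb had 23.1, 18.9 and 0 expected counts in cKO libraries 1, 2 and 3, and 27.8, 25.4 and 16.6 in controls 1, 2 and 3. Its negative value thus leans on cKO library 3, and its counts above 0 were fractional. The part of platelets in the Clec1b levels was not tested. Gp9, Gp6 and Treml1 had 2 counts or fewer in every library. Pdpn, the gene of podoplanin, had 71.5, 30.5 and 29.2 CPM in cKO libraries 1, 2 and 3 and 43.2, 21.7 and 26.5 CPM in controls 1, 2 and 3, and the groups overlapped (log2 fold change 0.52 ± 0.39, edgeR adjusted p = 0.785).

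Of the NKR-P1 receptor genes, Klrb1b and Klrb1c were higher in every cKO library than in every control, and highest in cKO libraries 2 and 3. Klrb1b (ENSMUSG00000079298), the inhibitory NKR-P1B receptor of the Clr-b lectin, had 21.7, 62.9 and 36.9 expected counts in cKO libraries 1, 2 and 3, and 5, 4 and 6 in controls 1, 2 and 3. Its lowest cKO library lay at 3.63 times its highest control. The log2 fold change was 3.01 ± 0.48 (SE), with means of 1.92 ± 0.936 CPM in cKO libraries and 0.234 ± 0.0445 CPM in controls (SD, n = 3 each). Klrb1c (ENSMUSG00000030325), which encodes the NK1.1 antigen, had 45.7, 117 and 105 expected counts in cKO libraries 1, 2 and 3, and 41.3, 37.0 and 29.4 in controls 1, 2 and 3. Here cKO library 1 at 2.17 CPM lay just above the highest control at 1.83 CPM, while cKO libraries 2 and 3 were at 5.37 and 5.22 CPM. The log2 fold change of 1.35 ± 0.37 (SE) therefore averages over libraries that stand apart.

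Both genes share sequence with Gm44511, a predicted gene whose annotation spans them. Its transcripts held 22.3% of the 100-base stretches of Klrb1b and 10.5% of those of Klrb1c. The counts of the 3 genes together were whole in every library, at 71, 185 and 144 in cKO libraries 1, 2 and 3 and 48, 41 and 37 in controls 1, 2 and 3. This sum does not depend on how reads were divided among them, and it too was higher in every cKO library. Klrb1a, another NKR-P1 gene, overlapped between groups at 1.19, 0.874 and 1.14 CPM in cKO libraries 1, 2 and 3 and 1.19, 0.543 and 0.897 CPM in controls 1, 2 and 3 (log2 fold change 0.28 ± 0.37, edgeR adjusted p = 0.872). Klrb1f gave 0.78 ± 0.36 (edgeR adjusted p = 0.747). Clec2d, the gene of the Clr-b ligand, was at 33.4, 41.5 and 55.5 CPM in cKO libraries 1, 2 and 3 and 42.9, 36.7 and 57.0 CPM in controls 1, 2 and 3, with a log2 fold change of -0.07 ± 0.22 (edgeR adjusted p = 0.955).

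**Figure D2:**
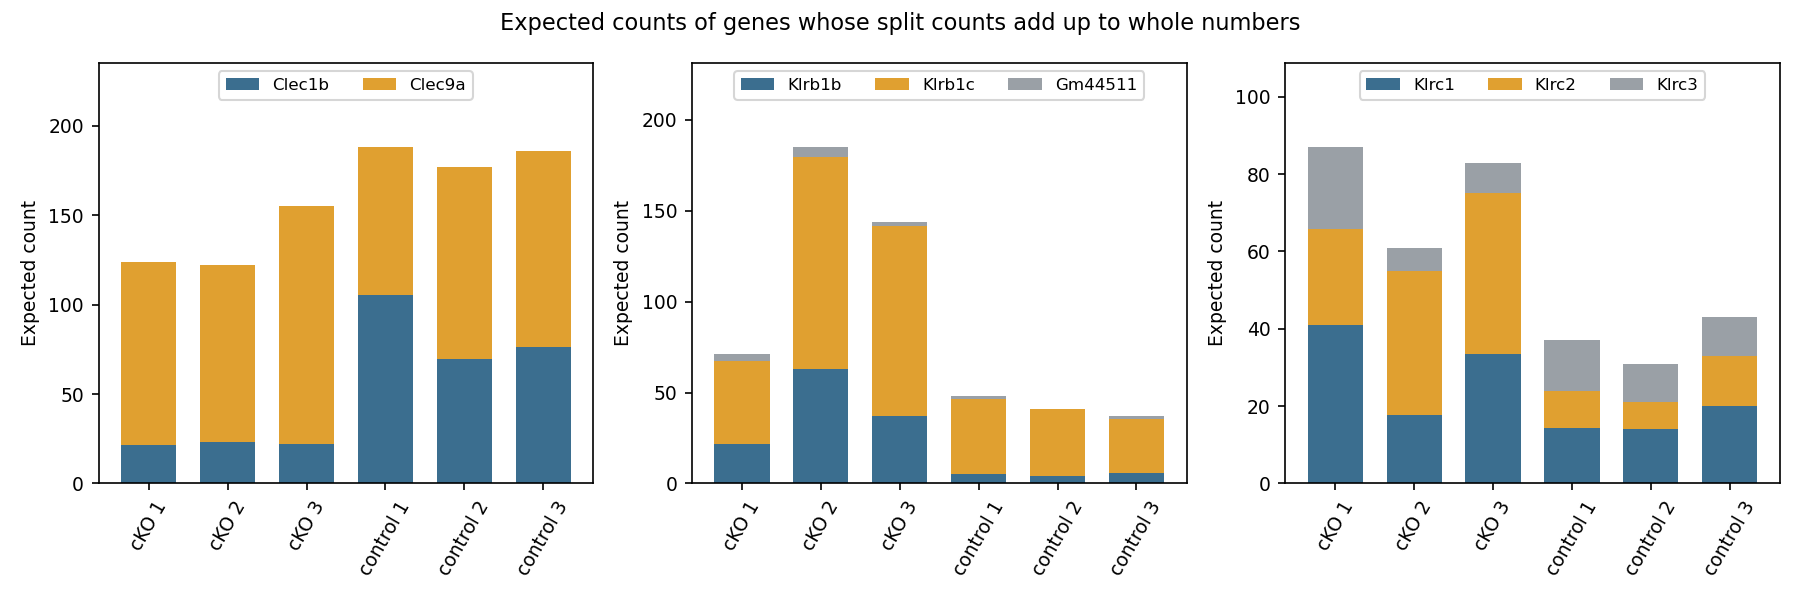
Expected counts per library of 3 sets of genes that share reads, stacked by gene (vertical axes in counts, from 0; cKO libraries left, controls right). The height of each bar is a whole number of reads, and only the division within it depends on how shared reads were split. Clec1b with Clec9a is lower in cKO libraries, at 122 to 155 against 177 to 188 in controls, and the other sets are higher.

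Klrd1 and Klrk1, the highest of the 10 genes per length, varied little between libraries. Klrd1 (ENSMUSG00000030165), the gene of CD94, had 150, 174 and 165 counts in cKO libraries 1, 2 and 3 and 183, 153 and 153 in controls 1, 2 and 3. That is 7.78 ± 0.569 CPM in cKO libraries and 7.61 ± 0.411 CPM in controls (SD, n = 3 each), with a log2 fold change of 0.03 ± 0.16 (SE). Klrk1 (ENSMUSG00000030149) encodes NKG2D, an activating receptor for stress-induced ligands. It had 208, 267 and 220 counts in cKO libraries 1, 2 and 3 and 247, 185 and 184 in controls 1, 2 and 3, a log2 fold change of 0.21 ± 0.16 (SE). The groups overlapped for both genes, and all of their counts were whole numbers.

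Klrc2 (ENSMUSG00000052736) encodes NKG2C, a chain that pairs with CD94 in an activating receptor. It had 25.0, 37.4 and 41.5 expected counts in cKO libraries 1, 2 and 3, and 9.76, 7 and 13 in controls 1, 2 and 3. The groups did not overlap, with means of 1.66 ± 0.439 CPM in cKO libraries and 0.463 ± 0.137 CPM in controls (SD, n = 3 each), and the log2 fold change was 1.80 ± 0.37 (SE). Its relatives behaved less uniformly. Klrc1, the gene of the inhibitory chain NKG2A, had 1.94, 0.810 and 1.67 CPM in cKO libraries 1, 2 and 3 and 0.626, 0.692 and 0.945 CPM in controls 1, 2 and 3 (log2 fold change 0.98 ± 0.40, edgeR adjusted p = 0.747). Klrc3 gave 0.12 ± 0.51 (edgeR adjusted p = 0.969). The 3 Klrc genes together had 87, 61 and 83 counts in cKO libraries 1, 2 and 3 and 37, 31 and 43 in controls 1, 2 and 3, so the pooled count was higher in every cKO library. H2-T23, which encodes Qa-1, their ligand, had a log2 fold change of 0.00 ± 0.18 (edgeR adjusted p = 0.998).

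Klra2 and Klra17 differed from the other members in that cKO library 1 held more of their reads than any other library. Klra2 (ENSMUSG00000030187), the gene of the inhibitory receptor Ly49B of myeloid cells, had 133, 18 and 26 counts in cKO libraries 1, 2 and 3, and 38, 14 and 33 in controls 1, 2 and 3. Only cKO library 1 lay outside the range of the controls. Klra17 (ENSMUSG00000014543), the gene of Ly49Q, an inhibitory receptor of plasmacytoid dendritic cells and other myeloid cells, had 70, 10 and 11 counts in cKO libraries 1, 2 and 3, and 27, 30 and 28 in controls 1, 2 and 3. For this gene the controls were close together, cKO library 1 was above all of them and cKO libraries 2 and 3 were below all of them. The log2 fold changes over 3 libraries each were 1.10 ± 0.75 for Klra2 and 0.12 ± 0.70 for Klra17 (SE). Without cKO library 1 they were -0.31 and -1.39. No stretch of 50 bases of either gene occurred in another gene, and all their counts were whole.

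The summed level of macrophage markers was also highest in cKO library 1. The 10 markers summed to 945, 447 and 619 CPM in cKO libraries 1, 2 and 3 and 569, 395 and 500 CPM in controls 1, 2 and 3. All 10 had positive log2 fold changes, the median being 0.62 against -0.00 over all genes tested, and edgeR's quasi-likelihood test called 0, with 3 at an unadjusted p under 0.05. The median was 0.25 without cKO library 1. Lyz2, lysozyme, the marker with the most reads, was at 257, 142 and 190 CPM in cKO libraries 1, 2 and 3 and 256, 137 and 162 CPM in controls 1, 2 and 3 (log2 fold change 0.09 ± 0.28, edgeR adjusted p = 0.956). The complement genes C1qa, C1qb and C1qc gave 0.53 ± 0.26, 0.61 ± 0.30 and 0.63 ± 0.31 (edgeR adjusted p = 0.747 for each). Of the 10 dendritic cell markers, 7 were higher and 3 lower and 0 were called, with 1 at an unadjusted p under 0.05, and the median of 0.29 became -0.00 without cKO library 1. By mean CPM the leading markers were Tcf4, Irf8, Zbtb46 and Itgax, at -0.10 ± 0.12, 0.35 ± 0.11, -0.24 ± 0.14 and 0.15 ± 0.15 (edgeR adjusted p = 0.861, 0.747, 0.760 and 0.826). Tcf4 and Zbtb46 were at their lowest in cKO library 1, at 281 and 17.9 CPM. Siglech, chosen after its values were seen, is a lectin of plasmacytoid dendritic cells and was at 3.66, 0.966 and 1.54 CPM in cKO libraries 1, 2 and 3 and 0.571, 1.78 and 1.51 CPM in controls 1, 2 and 3 (edgeR adjusted p = 0.799). Cd3e, a chain of the T cell receptor complex, was at 4.18, 0.828 and 0.894 CPM in cKO libraries 1, 2 and 3 and 1.76, 0.790 and 0.756 CPM in controls 1, 2 and 3 (edgeR adjusted p = 0.796). Cd3g, another chain of it, was at 8.60, 1.47 and 1.94 CPM in cKO libraries 1, 2 and 3 and 4.57, 1.43 and 1.84 CPM in controls 1, 2 and 3 (edgeR adjusted p = 0.858). The T cell list, with 9 of 10 genes higher, 0 called and 0 at an unadjusted p under 0.05, had a median log2 fold change of 0.54 over all libraries and -0.21 without cKO library 1. Its summed level, most of it from Thy1, was 220, 221 and 177 CPM in cKO libraries 1, 2 and 3 and 208, 213 and 214 CPM in controls 1, 2 and 3. The part of these cells in the Klra2 and Klra17 levels was not tested.

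The remaining Klra genes were measured alongside. The 14 Klra rows together had 401, 532 and 457 counts in cKO libraries 1, 2 and 3 and 306, 269 and 283 in controls 1, 2 and 3. That was 22.1 ± 2.76 CPM in cKO libraries and 13.4 ± 0.0795 CPM in controls (SD, n = 3 each). The sum, which contains the 3 members, had a log2 fold change of 0.72 ± 0.14 (SE). Without Klra8, Klra2 and Klra17, the other 11 rows stood at 9.33, 19.8 and 18.3 CPM in cKO libraries 1, 2 and 3 and 10.5, 11.0 and 10.4 CPM in controls 1, 2 and 3. In this sum cKO library 1 was below the controls and cKO libraries 2 and 3 were above them.

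Klra7, the gene of Ly49G, was at 4.95, 7.73 and 7.10 CPM in cKO libraries 1, 2 and 3 and 4.58, 4.10 and 4.06 CPM in controls 1, 2 and 3 (log2 fold change 0.63 ± 0.22, edgeR adjusted p = 0.747). Klra4, the gene of the activating receptor Ly49D, was at 1.52, 5.48 and 3.48 CPM in cKO libraries 1, 2 and 3 and 1.63, 2.91 and 2.31 CPM in controls 1, 2 and 3 (log2 fold change 0.61 ± 0.45, edgeR adjusted p = 0.780). Klra13-ps, a pseudogene, was at 1.23, 3.04 and 3.08 CPM in cKO libraries 1, 2 and 3 and 1.75, 1.58 and 1.65 CPM in controls 1, 2 and 3 (edgeR adjusted p = 0.765). Klra3 had 0, 10 and 16 counts in cKO libraries 1, 2 and 3 and 4, 1 and 0 in controls 1, 2 and 3, too few to be tested. For each of these 4 genes, cKO libraries 2 and 3 lay above the other 4 libraries. The same order held for Klra9 and Klra1, and outside the family for Klrb1f and Clec2i. The share of all genes with that order was not counted, so nothing is read from it. Klra5 was at -0.42 ± 0.30 (edgeR adjusted p = 0.778), and Klra9 and Klra1 gave 0.50 ± 0.46 and 0.63 ± 0.52 (edgeR adjusted p = 0.819 and 0.795).

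Within the family, 8 rows were pooled: Klra3, Klra7, Klra8, Klra9, Klra10, Klra11-ps, Klra13-ps and Klra14-ps. Reads were not divided among all 8. Klra3 and Klra11-ps counts were whole in every library, and Klra7 shared stretches of 50 bases only with Klra13-ps. The joint count of the 8 rows was whole in every library, at 142, 347 and 308 in cKO libraries 1, 2 and 3 and 167, 136 and 137 in controls 1, 2 and 3. Klra7 was the largest part of it in each library, at 104, 168 and 143 counts in cKO libraries 1, 2 and 3 and 104, 83 and 86 in controls 1, 2 and 3. The count of the 8 rows was thus also higher in cKO libraries 2 and 3 than in the other 4.

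**Figure D3:**
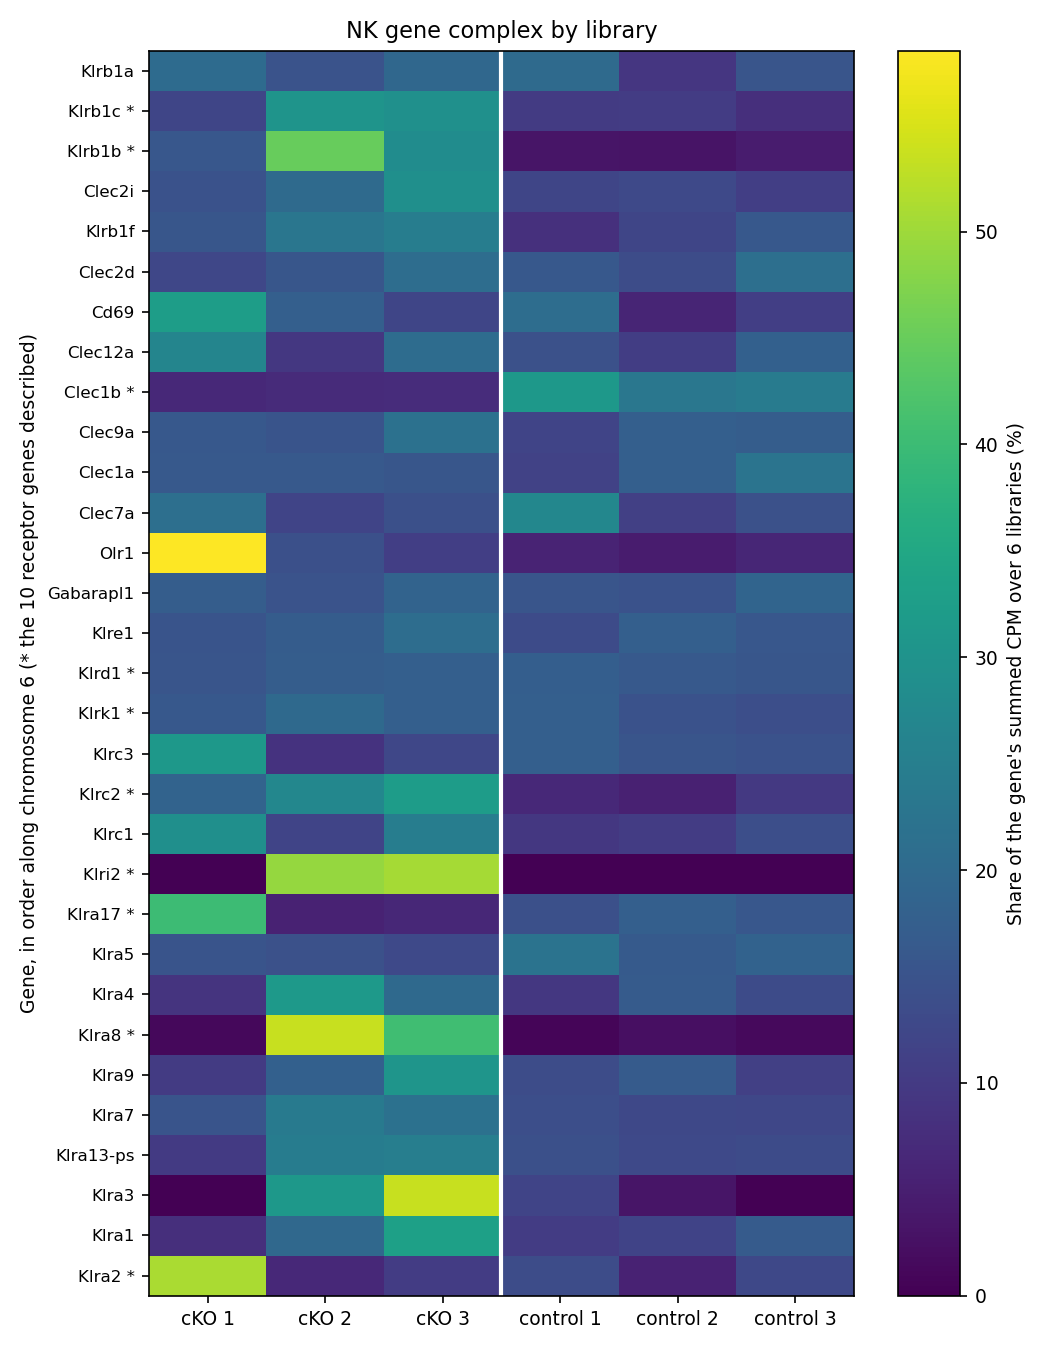
Share of each gene's summed CPM over the 6 libraries that came from each library (color, in %), for listed genes between Klrb1a and Klra2 with at least 30 counts in all, in order along chromosome 6, so that Klrg1, Styk1 and Magohb, outside that stretch, are not shown; asterisks mark the 10 receptor genes and the white line separates cKO libraries from controls. Klri2 and Klra8 draw nearly all their signal from cKO libraries 2 and 3, Klra2 and Olr1 most of theirs from cKO library 1, and Klrd1, Klrk1 and Klre1 are spread evenly.

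Over the other genes of the complex, 36 of 38 listed were in the tables and 22 passed the filter. Of the 22, 16 had positive and 6 negative log2 fold changes, the median was 0.23, and edgeR's quasi-likelihood test called 0, with 3 at an unadjusted p under 0.05. Clec2h and Clec2j had 0 counts in every library. All cKO libraries lay above all controls for Klra7 and Clec2i, and below them for Klra5 and Styk1. Over all genes tested the shares were 6.94% above and 5.78% below, so nothing is read from these counts. Clec2i, a Clr lectin gene, was at 0.903, 1.24 and 1.79 CPM in cKO libraries 1, 2 and 3 and 0.747, 0.790 and 0.661 CPM in controls 1, 2 and 3 (log2 fold change 0.83 ± 0.35, edgeR adjusted p = 0.747). Styk1, which encodes a kinase-like protein, gave -0.43 ± 0.23 (edgeR adjusted p = 0.754). Klrg1, an inhibitory receptor of cadherins, was at 3.18, 8.60 and 2.53 CPM in cKO libraries 1, 2 and 3 and 4.31, 4.40 and 4.34 CPM in controls 1, 2 and 3 (edgeR adjusted p = 0.953). Clec1a, a lectin-like receptor gene, Magohb and the autophagy gene Gabarapl1 gave -0.09 ± 0.23, -0.18 ± 0.17 and 0.06 ± 0.13 (edgeR adjusted p = 0.939, 0.831 and 0.919).

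NK cell markers outside the complex were measured in the same libraries. Of 14 markers, all tested, 12 had positive and 2 negative log2 fold changes. Their median was 0.35, and edgeR's quasi-likelihood test called 0, with 4 at an unadjusted p under 0.05. Their summed level was 202, 190 and 153 CPM in cKO libraries 1, 2 and 3 and 142, 110 and 144 CPM in controls 1, 2 and 3. Gzma, granzyme A, averaged 13.1 CPM in cKO libraries and 7.74 CPM in controls (log2 fold change 0.76 ± 0.19, edgeR adjusted p = 0.747). Ncr1, the gene of the NK receptor NKp46, was at 5.51, 3.96 and 5.51 CPM in cKO libraries 1, 2 and 3 and 8.17, 4.45 and 5.29 CPM in controls 1, 2 and 3, a log2 fold change of -0.26 ± 0.27 (edgeR adjusted p = 0.841). Il2rb, an interleukin receptor chain, gave 0.46 ± 0.15, Gzmb, granzyme B, 0.68 ± 0.43, Nkg7, a granule protein, 0.29 ± 0.14 and Itga2, an integrin subunit, 0.53 ± 0.20 (edgeR adjusted p = 0.747, 0.760, 0.747 and 0.747). The part of NK cell number in the receptor levels was not tested. Per 100 Klrd1 counts of the same library, Klri2 had 0, 37.4 and 37.6 counts in cKO libraries 1, 2 and 3 and 0 in each control, and Klra8 had 1.19, 41.9 and 31.1 in cKO libraries 1, 2 and 3 and 0.546, 1.96 and 1.31 in controls 1, 2 and 3. The Klrd1 counts used as the base were 150 or more in every library.

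Among adaptors, all 10 adaptor and signalling genes had positive log2 fold changes, the median being 0.30, and edgeR called 0, while 1 had an unadjusted p under 0.05. Without cKO library 1 the median was 0.01. Tyrobp, the adaptor DAP12, was at 35.5, 23.7 and 29.9 CPM in cKO libraries 1, 2 and 3 and 22.3, 21.5 and 25.5 CPM in controls 1, 2 and 3 (log2 fold change 0.36 ± 0.16, edgeR adjusted p = 0.747). The kinase gene Syk and the phosphatase gene Ptpn6 each gave 0.22, with SEs of 0.21 and 0.23 (edgeR adjusted p = 0.825 and 0.843). Both were highest in cKO library 1, at 33.9 and 29.2 CPM. Fcer1g, an adaptor chain, Lcp2, a scaffold, and Plcg2, a phospholipase, gave 0.42 ± 0.30, 0.46 ± 0.22 and 0.04 ± 0.15 (edgeR adjusted p = 0.777, 0.747 and 0.958). Of 12 ligand genes, 9 were in the tables and 8 were tested, 4 higher and 4 lower with a median of -0.03, and edgeR called 0, with 0 at an unadjusted p under 0.05. The class I genes H2-K1 and H2-D1, ligands of Ly49 receptors, gave -0.07 ± 0.17 and 0.02 ± 0.17 (edgeR adjusted p = 0.933 and 0.988). Ulbp1, the gene of the NKG2D ligand MULT-1, was at 23.5, 11.8 and 10.4 CPM in cKO libraries 1, 2 and 3 and 12.2, 15.2 and 15.5 CPM in controls 1, 2 and 3 (edgeR adjusted p = 0.957). Raet1e, the gene of another NKG2D ligand, gave -0.11 ± 0.33 (edgeR adjusted p = 0.951).

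Levels can be compared between genes only per length, as TPM, which corrects for gene length. In cKO libraries the order of mean levels was Klrd1 at 15.7 ± 1.07 TPM, Klrk1 at 10.2 ± 1.08, Klrb1c at 2.86 ± 1.42, Klra8 at 2.66 ± 2.25, Klra2 at 2.37 ± 2.61, Klra17 at 1.96 ± 2.26, Klrc2 at 1.42 ± 0.562, Klrb1b at 1.40 ± 0.421, Clec1b at 0.890 ± 0.166 and Klri2 at 0.710 ± 0.616 TPM (SD, n = 3). Klrd1 and Klrk1 stood apart from each other and from the rest beyond their spread, and from Klrb1c on the ranges of neighbours overlapped. In controls it was Klrd1 at 14.7 ± 0.263 TPM, Klrk1 at 8.24 ± 1.31, Clec1b at 3.66 ± 1.19, Klra17 at 1.70 ± 0.255, Klra2 at 1.02 ± 0.398, Klrb1c at 0.870 ± 0.121, Klrc2 at 0.513 ± 0.242, Klrb1b at 0.250 ± 0.0458 and Klra8 at 0.123 ± 0.0751 TPM, with Klri2 listed at 0 (SD, n = 3). There the ranges of neighbours overlapped for Klra2 and Klrb1c and for Klrb1c and Klrc2. Clec1b was therefore the third of the 10 in controls and the ninth in cKO libraries.

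The tables also hold, for each gene and library, an effective length, which moves with the mix of transcript forms that RSEM assigned. For Klrb1c it was 2424, 1836 and 1898 bases in cKO libraries 1, 2 and 3, and 2418, 2424 and 2421 bases in controls 1, 2 and 3. That readout divided the libraries as Klri2 and Klra8 did, with cKO library 1 among the controls. The share of all genes whose effective length divides them so was not counted, and nothing is read from it. Klra7, which is no member, was also longest in cKO libraries 2 and 3, at 835 and 858 bases against 769 to 789 in the other 4. For Klrc2 it was 783, 2170 and 2298 bases in cKO libraries 1, 2 and 3, and 1521, 1087 and 994 bases in controls 1, 2 and 3, so that cKO libraries 2 and 3 again lay above the other 4. The Klrb1b length was 1415, 2014 and 1767 bases in cKO libraries 1, 2 and 3 and 1110, 1217 and 1214 bases in controls 1, 2 and 3, where it rested on 6 counts or fewer per library. It too was longest in cKO libraries 2 and 3. For Clec1b the groups overlapped, at 1973, 1341 and 1517 bases in cKO libraries 1, 2 and 3 and 1104, 1361 and 1716 bases in controls 1, 2 and 3. The Klrc2 length in controls rested on 13 counts or fewer per library. Klrk1 was at 1338, 1378 and 1575 bases in cKO libraries 1, 2 and 3. In controls 1, 2 and 3 it was at 1344, 1469 and 1588 bases, so its length did not divide the libraries that way. Klrd1 varied little, between 633 and 659 bases over all libraries.

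**Figure D4:**
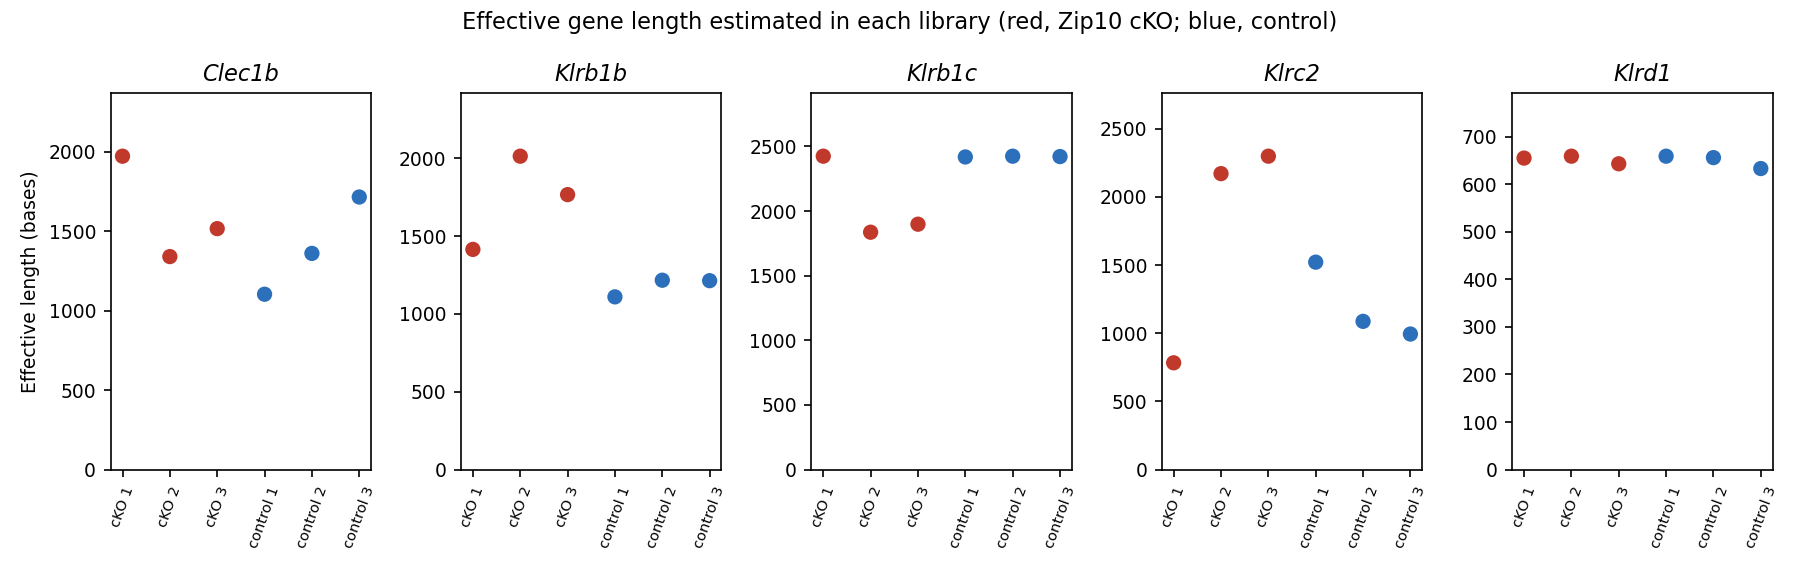
Effective gene length in bases (vertical axes from 0) that RSEM estimated in each library for 5 of the receptor genes, red for Zip10 cKO and blue for control. Klrb1c is at 1836 and 1898 bases in cKO libraries 2 and 3 and between 2418 and 2424 in the others, while Klrd1 stays between 633 and 659.

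The genes whose log2 CPM over the 6 libraries was most like that of a member are given as a description, since with 6 points many genes come close. All values compared share the library and its depth. For Klrb1c the nearest gene was Klra7, which lies toward the other end of the complex, with a Pearson correlation of 0.984, followed by Plekha6 and Cdk5rap1 at 0.978 and 0.971. For Klra2 it was Ctss, the gene of cathepsin S of antigen-presenting cells, at 0.996, then Acp5, an acid phosphatase of macrophages and osteoclasts, at 0.993 and the lymphocyte receptor gene Cd226 at 0.989. For Clec1b it was Cuta at 0.996, then Aldh1l1, an enzyme of folate metabolism, at 0.987 and Scnm1 at 0.986. Nearest to Klra17 were Recql4 at 0.986, the inflammasome gene Nlrp3 at 0.979 and Rbl1 at 0.978. Klrb1b lay close to Ubr1 and Lsmem2 at 0.987 and 0.978, and Klrc2 to Kifc3, Il31ra and Ubr1 at 0.986, 0.979 and 0.972. Klrd1 lay nearest to Pwwp2b, Gucy2g and Zbtb11os1 at 0.984, 0.983 and 0.978, and Klrk1 to Ppm1a, Minar2 and Mpzl2 at 0.992, 0.967 and 0.963. Of these genes, Klra7 and Aldh1l1 lie on chromosome 6.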

How the data were processed

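RNA of 6 uterine libraries (3 Zip10 cKO, 3 control) was grouped by the sample titles. The submitters' processing notes name build GRCm39 (mm39), RSEM 1.3.3, STAR 2.7.10a, fastp 0.23.2, edgeR 3.38.4 and R 4.2.1, with no order; the annotation release and whether counting used strand are not stated there. The authors deposited RSEM expected counts, in which reads shared by genes are split, with TPM and effective lengths, per the file headers. TPM keeps no depth. Of 56748 gene IDs, 91.8% matched a GENCODE M21 symbol; that annotation is of GRCm38, so no coordinates are given. Of the transcripts the tables name for the members, all are in M21.

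Expected counts were rounded, filtered by filterByExpr (minimum count 10, minimum total 15), scaled by TMM and tested by edgeR 4.0.16's quasi-likelihood test (robust; R 4.3.3), two-sided, with Benjamini-Hochberg adjustment over 16737 genes and a threshold of 0.05. The SE is the log2 fold change over the root of the F statistic. CPM uses unrounded counts. Sequence sharing was counted over all M21 transcripts, both strands, in stretches of 50 and 100 bases; coding sequences were aligned with MAFFT 7.526. The test was checked on simulated counts, with changes placed only in genes of higher mean count than several members have. That check therefore does not cover genes with counts as low as theirs. Libraries of a group differed beyond sampling noise (chi-square per degree of freedom at least 19.3).

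Members and lists were chosen with earlier results of these data known. Named besides members were the complex genes kept, up to 6 ligands and 6 adaptors and up to 4 markers per list, by mean CPM, and for each member kept the 3 most correlated genes of at least 1 CPM. Some genes the rule names are not reported here. Klra3, Klra14-ps, Klri1, Olr1, Igkv6-14, Gm44511, Siglech, Cd3e, Ncr1 and Gzma fall outside that rule and were chosen after their values were seen, as were the sums over genes that share reads and the Klra sum without members. Alternatives were other normalizations, no filter, DESeq2 1.42.0, limma-voom (limma 3.58.1), limma-trend on log2 TPM plus 1 or 0.1, the replicate number as a block, family sums, cutting counts down, and each library left out. Figures used matplotlib 3.10.9.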

Additional observations from a re-analysis of the deposited data

How the results depend on the processing

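The count of 0 called genes held with edgeR under DESeq2 size factors, upper-quartile scaling and the replicate block, with limma-voom (1066 genes at an unadjusted p under 0.05) and with limma-trend on TPM. It was 38 of 28970 genes with DESeq2, 15 of 28980 with no filter on low counts and 0 to 2 with a library left out. The 2 calls came without cKO library 1 and were Klra8 and Klri2, genes chosen on these values. The calls with no filter included Clec1b and Klrb1b. The DESeq2 calls included Clec1b, Klra8 and Klrb1b, and 1 listed gene that is no member, Myh11. In every other setting run, 0 listed genes that are no members were called.

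The summed Klra log2 fold change was 0.64 to 0.82 with a library left out and 0.66 to 0.72 in the other settings. Of 123 alternative log2 fold changes of members, 116 moved by less than the spread between libraries and 7 by more. These were Clec1b at -1.28, Klrb1b at 0.92 and Klrc2 at 0.66 on log2 TPM plus 1, Klrb1b at 2.07 and Klrc2 at 1.32 on log2 TPM plus 0.1, where the added value shrinks the change of low genes, and Klra2 and Klra17 without cKO library 1. Klra17, Klrd1 and Klra2 changed sign in 5, 3 and 1 settings, and the T cell median in the setting without cKO library 1 (-0.21). With a library left out, the medians ran from 0.27 to 0.86 for smooth muscle, -0.58 to -0.19 for epithelium, 0.15 to 0.35 for stroma, 0.12 to 0.54 for red blood cells, -0.18 to 0.05 for ligands and -0.22 to -0.00 for lymphatic endothelium. With a library left out, Clec1b ran from -1.97 to -1.75 and Klrb1c from 1.15 to 1.66. With the replicate block, 0 genes were called. Same-numbered libraries deviated together with correlations of 0.092, 0.254 and 0.189, so the numbers were not taken as pairs. Klri2 and Klra8 are limited by depth in 4 libraries, where up to 3 counts cannot be told from 0.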

Other observations

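Lectin genes of myeloid cells within the complex also varied between libraries. Olr1, a receptor for oxidised lipoprotein, had 28, 7 and 5 counts in cKO libraries 1, 2 and 3 and 3, 2 and 3 in controls 1, 2 and 3, and did not pass the filter on low counts. Clec12a, an inhibitory receptor of myeloid cells, was at 16.2, 5.80 and 12.6 CPM in cKO libraries 1, 2 and 3 and 8.88, 6.52 and 10.9 CPM in controls 1, 2 and 3 (log2 fold change 0.39 ± 0.36, edgeR adjusted p = 0.814). Clec7a, the gene of the glucan receptor dectin-1, was at 6.89, 3.87 and 4.62 CPM in cKO libraries 1, 2 and 3 and 8.75, 3.56 and 4.68 CPM in controls 1, 2 and 3 (log2 fold change -0.15 ± 0.36, edgeR adjusted p = 0.936). Cd69, an early activation marker of lymphocytes, was at 1.85, 1.01 and 0.695 CPM in cKO libraries 1, 2 and 3 and 1.19, 0.346 and 0.614 CPM in controls 1, 2 and 3 (log2 fold change 0.72 ± 0.52, edgeR adjusted p = 0.780). The groups overlapped for Clec12a, Clec7a and Cd69. For Olr1 every cKO library lay above every control, but the controls had 3 counts or fewer and cKO library 3 had 5, so nothing is read from that order.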
